A study of Arabidopsis thaliana with 24 samples.

Results

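The calmodulin-like and EF-hand calcium sensors on the array were 5 genes, AT4G27280, CML42 (AT4G20780), AT5G39670, AT2G41410 and AT2G41090. They were taken by identifier from the probe table, which gave 1 probe for each (probes 436, 402, 528, 242 and 239), so the group comprised 5 of the 576 probes measured and 5 of the 181 with a gene name. The arrays compared wild-type Arabidopsis thaliana of accession Col with mpk11, a T-DNA insertion line (SALK049352, a single allele in the Col background) in the gene of the mitogen-activated protein kinase MPK11. Seedlings of both genotypes were 10 days old and had been moved to fresh liquid medium 48 h earlier. They received 1 µM flg22, a peptide of bacterial flagellin that plants recognise as a sign of infection, or water (mock), and total RNA of their leaves was taken at 30 min or 3 h. Each of the 8 groups of genotype, treatment and time held 3 arrays, numbered as sets 1 to 3.

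In plant cells a rise in cytosolic calcium is among the first events after flagellin is recognised at the cell surface. EF-hand proteins bind the calcium through a helix-loop-helix motif, change shape and pass the signal to the proteins they touch. Calmodulin is the conserved member of this family, and the calmodulin-like proteins are plant relatives that vary in number of EF hands and in expression. CML42 is known in Arabidopsis for a part in leaf hair branching and as a negative regulator of jasmonate-dependent defence against feeding insects. The annotation used here gives the other 4 genes no name beyond their identifiers. AT2G41090 is listed next to TCH3, a touch-induced calmodulin-like gene, which is not among the named probes.

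Levels are log values as deposited and are read as log2, since no base is stated. Each test is a contrast in a limma model of the 8 group means over all 24 arrays. P-values were adjusted by Benjamini-Hochberg over the 576 probes, with a threshold of 0.05. They measure the spread between the arrays of a group, which may be technical, because the labels do not say that the sets were separate experiments. The number of arrays limits the precision, and with whole-leaf RNA a change in the share of a cell type cannot be told apart from a change in RNA per cell. Array medians lay between 3.34 and 3.76 on the 12 mock arrays and between 4.02 and 4.17 on the 12 flg22 arrays, so a scaling to equal medians lowers every flg22 difference. None of the 16 leaf and 6 root marker genes listed for the check was among the named probes, so the labelled tissue could not be checked here, and the probe for MPK11 itself was not analysed here.

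AT4G27280 and AT5G39670 rose with flg22 at 30 min, by 4.64 and 1.95 in wild type, and had much smaller differences at 3 h. CML42 and AT2G41410 were higher with flg22 at both times, by 1.39 to 2.40 in wild type. As deposited, AT2G41090 fell between 30 min and 3 h by more than it rose with flg22. That rise did not pass after median centring or quantile normalization. These patterns were seen in both genotypes, as the plot of levels by array shows.

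**Figure D1:**
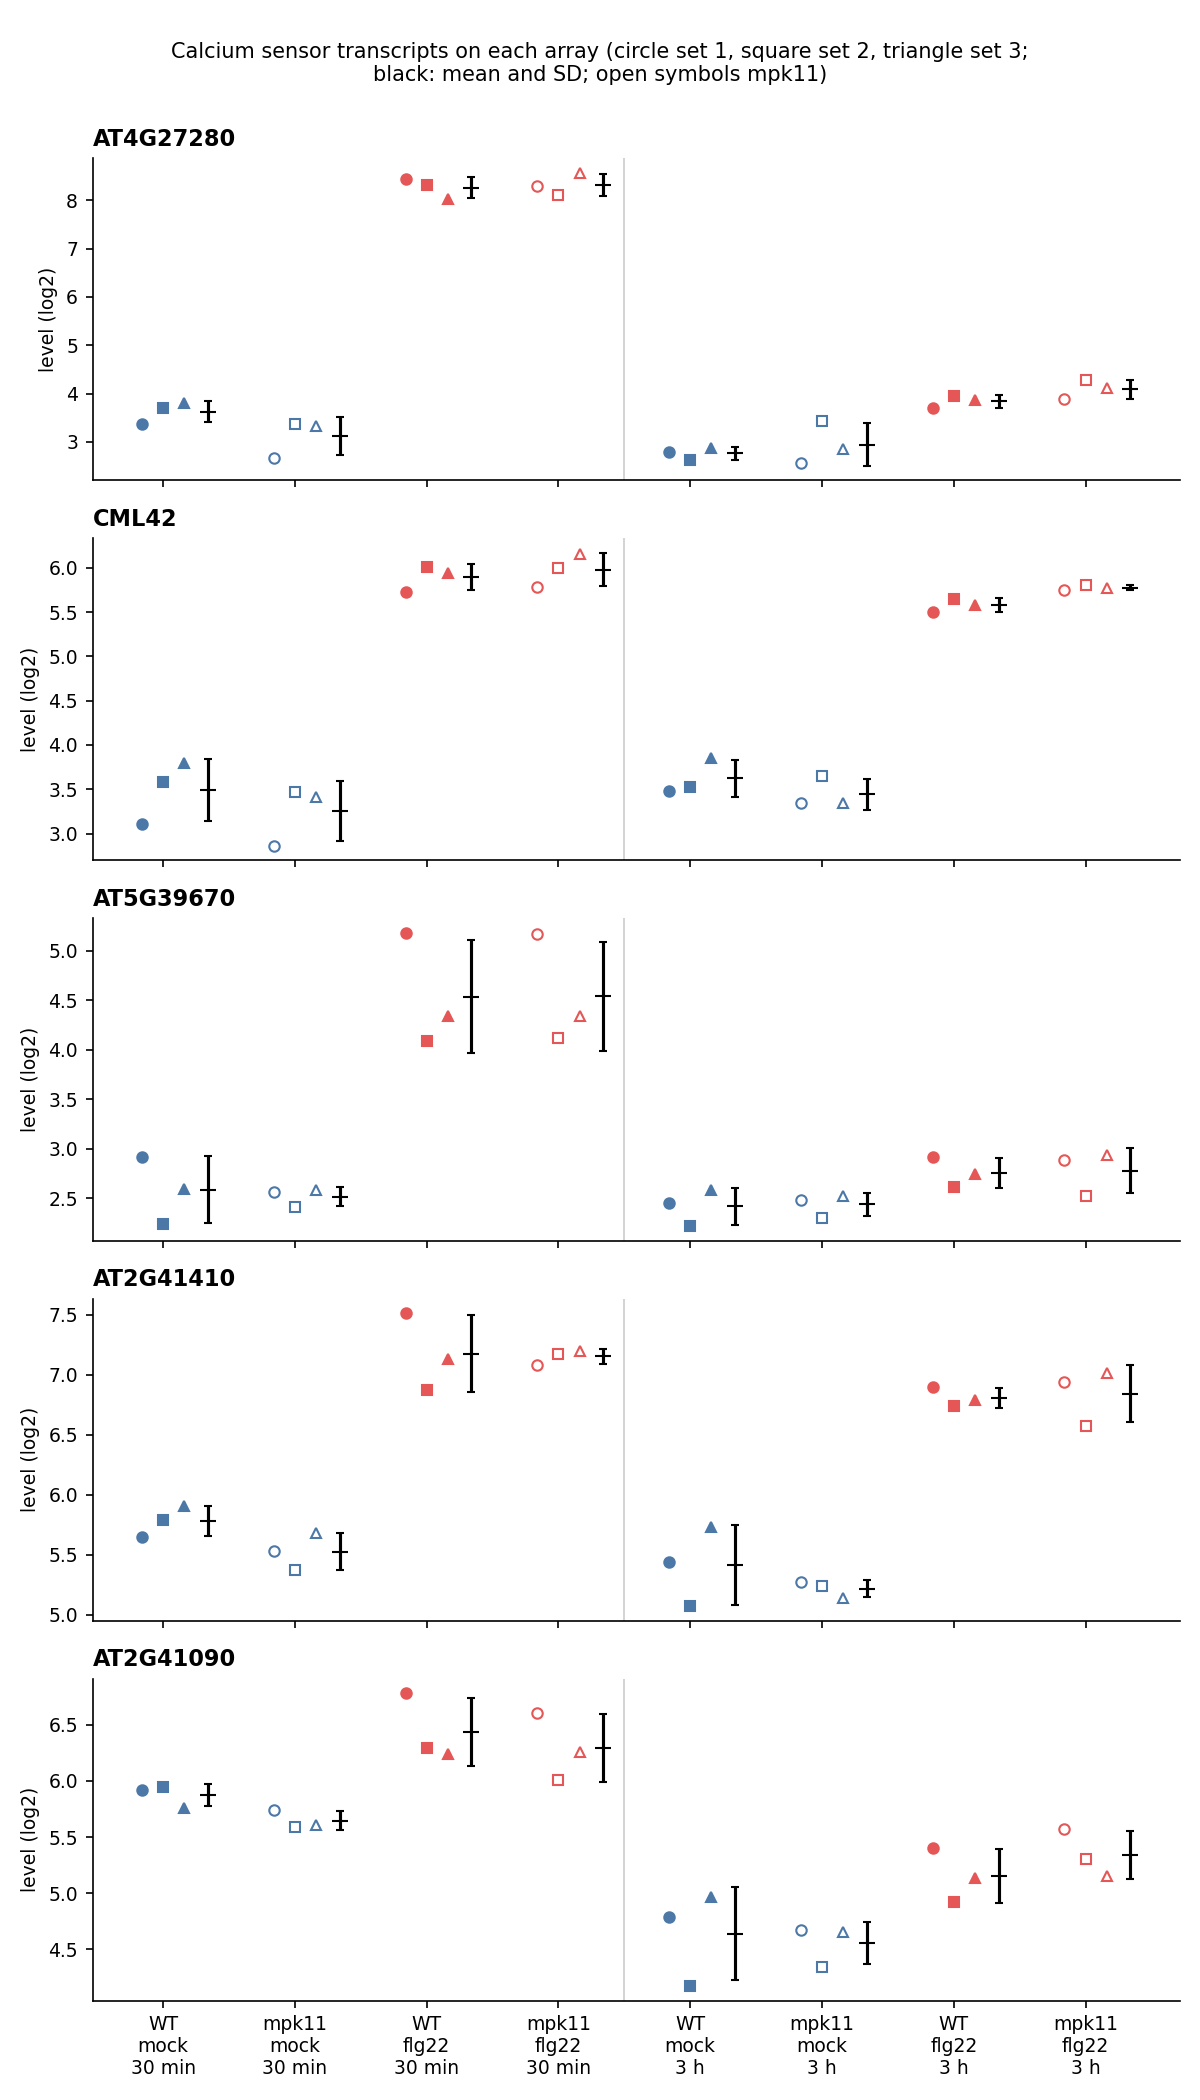
Deposited log2 level of the 5 genes on each of the 24 arrays (y axis) by group (x axis), with mock in blue, flg22 in red, wild type filled and mpk11 open. Circles, squares and triangles are sets 1, 2 and 3, and the black bar is the mean with its SD (n = 3). AT4G27280 lies at 8.03 or above on the 6 arrays with flg22 at 30 min and at 4.27 or below on the other 18.

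AT4G27280, an EF-hand gene, had the largest response at 30 min of the 5, and it was much smaller at 3 h. In wild type at 30 min its levels in sets 1 to 3 were 3.37, 3.71 and 3.80 in mock and 8.45, 8.33 and 8.03 with flg22. In mpk11 at the same time they were 2.66, 3.36 and 3.33 in mock and 8.29, 8.12 and 8.57 with flg22. The treated and mock arrays lay far apart in both genotypes, and the 3 arrays of each treated group were within a narrow band. By 3 h the flg22 arrays had come down to 3.69, 3.95 and 3.87 in wild type and 3.88, 4.27 and 4.12 in mpk11. Mock arrays at 3 h read 2.80, 2.61 and 2.87 in wild type and 2.56, 3.42 and 2.84 in mpk11. Treated and mock arrays still did not overlap at 3 h in either genotype.

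The rise of AT4G27280 at 30 min ranked 3 from the top of the 576 probes in wild type, at 4.64 (SE 0.21; limma adjusted p = 1.94e-14), and 2 from the top in mpk11, at 5.21 (SE 0.21; limma adjusted p = 3.63e-15). At 3 h it was still higher with flg22, by 1.08 (SE 0.21; limma adjusted p = 1.80e-04) in wild type and by 1.15 (SE 0.21; limma adjusted p = 7.65e-05) in mpk11. Median centring brought the 3 h values to 0.55 and 0.52, and quantile normalization to 0.70 and 0.60, all still past the threshold. The 3 h difference was 23.4% ± 5.7 (SD over sets, n = 3) of the 30 min difference in wild type and 21.9% ± 3.5 in mpk11. This SD matches 30 min to 3 h by set number, although the flg22 groups do not count as paired across these times. Taken as a ratio of the mean differences on the log scale, the share was 23.2% and 22.0% as deposited. After median centring that ratio was 13.1% and 11.1%.

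AT5G39670 followed the same time course at a smaller size. With flg22 at 30 min its levels were 5.18, 4.09 and 4.34 in wild type and 5.16, 4.12 and 4.34 in mpk11. Set 1 was the highest in both genotypes, so the spread within the treated groups (SD 0.57 and 0.55) followed the set number more than the genotype. Mock arrays at 30 min read 2.92, 2.24 and 2.59 in wild type and 2.56, 2.41 and 2.59 in mpk11, all below the treated arrays. The rise was 1.95 (SE 0.25; limma adjusted p = 9.03e-07) in wild type and 2.02 (SE 0.25; limma adjusted p = 4.99e-07) in mpk11, with set 1 at 2.26 and 2.61 and the other sets between 1.71 and 1.84.

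At 3 h AT5G39670 lay close to the mock values. Its levels with flg22 were 2.92, 2.62 and 2.74 in wild type and 2.89, 2.52 and 2.93 in mpk11, against 2.45, 2.22 and 2.59 and 2.48, 2.30 and 2.52 in mock. The wild-type groups did not overlap, though their closest arrays were 0.03 apart, and the mpk11 groups met at 2.52. The flg22 array was the higher in each set, by 0.47, 0.40 and 0.16 in wild type and by 0.40, 0.21 and 0.41 in mpk11, but the mean differences of 0.34 in both genotypes did not pass (limma adjusted p = 0.333 and 0.314; 95% intervals -0.18 to 0.86). After median centring they were -0.19 and -0.28, also without passing. These groups count as paired by set number. With the set as a block the 95% intervals as deposited were -0.03 to 0.71 in wild type and -0.02 to 0.71 in mpk11. Neither difference passed with the block (limma adjusted p = 0.132 and 0.124). As deposited, the 3 h difference was 17.01% ± 7.07 (SD over sets, n = 3) of that at 30 min in wild type and 17.1% ± 5.6 in mpk11. That SD matches 30 min to 3 h by set number, and across these times the flg22 groups do not count as paired. AT5G39670 shared its exact value with at least 1 other probe on 19 of the 24 arrays, and no source used here gives the reason for such ties, which touched the other members on 11 to 18 arrays.

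CML42 was higher with flg22 at both times. In mock its 12 arrays lay between 2.86 and 3.86, with a median of 3.48. With flg22 the 12 arrays lay between 5.50 and 6.15, with a median of 5.77, so the treatments did not overlap. In wild type the levels with flg22 were 5.73, 6.01 and 5.94 at 30 min and 5.50, 5.65 and 5.58 at 3 h. In mpk11 they were 5.78, 5.999 and 6.15 at 30 min and 5.75, 5.81 and 5.77 at 3 h. The 3 mpk11 arrays at 3 h were above the 3 wild-type arrays, by as little as 0.10 between the closest pair, and the difference of 0.20 did not pass (limma adjusted p = 0.998).

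CML42 rose with flg22 by 2.40 (SE 0.18) at 30 min and 1.96 (SE 0.18) at 3 h in wild type, and by 2.73 and 2.33 in mpk11. The limma adjusted p was 3.48e-09 or less in each. Per set, the 3 h difference was 81.5% ± 5.4 (SD, n = 3) of the 30 min difference in wild type and 85.5% ± 2.9 in mpk11. The sets were matched across the times by number, although the flg22 groups do not count as paired across them. As a ratio of the mean differences, the share was 81.5% and 85.4% as deposited and 67.6% and 73.8% after quantile normalization. The lower response at 3 h did not pass in either genotype, at -0.45 (95% interval -0.96 to 0.07; limma adjusted p = 0.237) and -0.40 (95% interval -0.92 to 0.12; limma adjusted p = 0.269).

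AT2G41410 likewise separated by treatment at both times. Its 12 mock arrays lay between 5.07 and 5.90 and its 12 flg22 arrays between 6.57 and 7.51. In wild type the levels with flg22 were 7.51, 6.87 and 7.13 at 30 min and 6.90, 6.74 and 6.79 at 3 h, and in mpk11 7.08, 7.18 and 7.20, then 6.94, 6.57 and 7.01. In mock they were 5.65, 5.79 and 5.90 in wild type at 30 min and 5.44, 5.07 and 5.73 at 3 h, and in mpk11 5.53, 5.37 and 5.68, then 5.28, 5.24 and 5.14. The treated and mock arrays were thus apart in every genotype and time, with set 2 of the wild type low in the treated group at 30 min and in the mock group at 3 h. The rise was of one size at both times, 1.39 and 1.39 (SE 0.17) in wild type and 1.63 and 1.62 (SE 0.17) in mpk11. The limma adjusted p was 3.46e-07 or less in each. The response at 3 h less that at 30 min was 0.003 in wild type (95% interval -0.49 to 0.49) and -0.004 in mpk11 (95% interval -0.50 to 0.49). Matched by set number it ran from -0.40 to 0.58 in wild type, although neither treatment counts as paired across the times there. The intervals were wide, so a change within them could have been missed. Both values were below 0 after quantile normalization (-0.12 and -0.39), without passing.

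**Figure D2:**
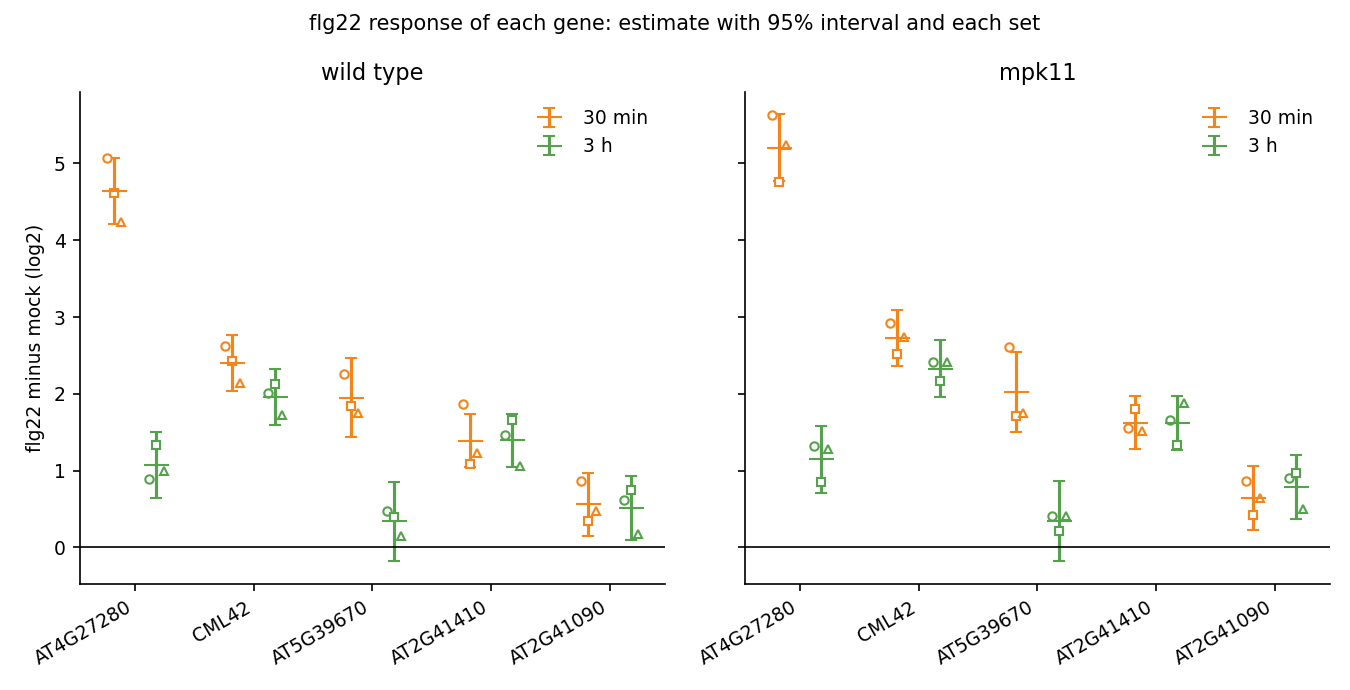
Difference between flg22 and mock (y axis, log2) of the 5 genes (x axis) in wild type and mpk11. The bar is the limma estimate with its 95% interval, orange at 30 min and green at 3 h, and open symbols are the differences within set 1 (circle), set 2 (square) and set 3 (triangle). The intervals at the 2 times are far apart for AT4G27280 and AT5G39670 and overlap for the other 3 genes.

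AT2G41090 separated by time: its 12 arrays at 30 min all lay above its 12 arrays at 3 h, whatever the genotype or treatment. At 30 min they ranged from 5.59 to 6.78 and at 3 h from 4.17 to 5.57. In mock the levels were 5.92, 5.95 and 5.76 at 30 min and 4.79, 4.17 and 4.96 at 3 h in wild type, and 5.74, 5.59 and 5.61, then 4.67, 4.34 and 4.66, in mpk11. With flg22 they were 6.78, 6.29 and 6.24 at 30 min and 5.40, 4.92 and 5.13 at 3 h in wild type, and 6.61, 6.01 and 6.26, then 5.57, 5.30 and 5.15, in mpk11. Set 1 was the highest of the flg22 arrays in each of the 4 groups.

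Between 30 min and 3 h AT2G41090 fell in all 4 combinations of genotype and treatment. In mock it fell by 1.23 (SE 0.20; limma adjusted p = 1.60e-04) in wild type and fell by 1.09 (SE 0.20; limma adjusted p = 6.95e-04) in mpk11. With flg22 it fell by 1.28 (SE 0.20; limma adjusted p = 1.09e-05) in wild type and fell by 0.95 (SE 0.20; limma adjusted p = 3.94e-04) in mpk11. Each set showed a fall in each combination. All 4 calls were kept after median centring, where the values ran from -1.19 to -0.93, and after quantile normalization, where they ran from -1.36 to -0.96.

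The flg22 difference of AT2G41090 was small and depended on the scaling. It passed in all 4 comparisons as deposited, at 0.56 (SE 0.20; limma adjusted p = 0.0493) at 30 min and 0.51 (SE 0.20; limma adjusted p = 0.0455) at 3 h in wild type, and at 0.65 (limma adjusted p = 0.0188) and 0.79 (limma adjusted p = 0.00243) in mpk11. Treated and mock arrays did not overlap at 30 min in either genotype or at 3 h in mpk11, and overlapped at 3 h in wild type. After median centring the 4 differences were 0.09, -0.02, 0.15 and 0.16, and none passed (limma adjusted p from 0.437 to 0.937). In the same order, centring took the median difference over all probes from 0.06, 0.14, 0.07 and 0.20 to -0.42, -0.39, -0.43 and -0.42. For AT2G41090 quantile normalization gave 0.08, -0.21, -0.001 and -0.02, with none passing. The flg22 and mock groups count as paired by set number, and with the set as a block all 4 calls as deposited were kept. In wild type the limma adjusted p was then 0.00683 at 30 min and 0.00767 at 3 h. In mpk11 it was 0.00193 and 1.50e-04. Without the block, single arrays also decided some of these calls. In wild type at 30 min the difference ran from 0.39 to 0.67 over all leave-outs, and the call was lost without set 1 or set 3, flg22 array 1 or 2, or any of the 3 mock arrays (limma adjusted p up to 0.371). At 3 h it ran from 0.28 to 0.68, and the call was lost without any 1 of the sets, without mock array 2, and without flg22 array 1 or 3 (limma adjusted p up to 0.331). In mpk11 at 30 min it ran from 0.49 to 0.79, and the call was lost without set 1 or set 3, without mock array 2 or 3, and without the flg22 array of set 1 (limma adjusted p up to 0.165). The mpk11 call at 3 h was kept in all leave-outs, with values from 0.67 to 0.93.

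Counted together, 5 of 5 members passed as higher with flg22 at 30 min in wild type, where 20.3% of all probes did, and 5 of 5 in mpk11, where 20.5% did. At 3 h the counts were 4 of 5 in each genotype, beside 31.9% of all probes in wild type and 34.4% in mpk11, with AT5G39670 not passing. The median difference of the members was 1.95 and 2.02 at 30 min and 1.08 and 1.15 at 3 h, in wild type and mpk11, against a median over all probes of 0.06 and 0.07 at 30 min and 0.14 and 0.20 at 3 h. The members were chosen with these results known, so the counts describe the 5 genes and are no test of the family. Median centring lowered each difference by the same amount, a shift of -0.47 and -0.53 in wild type and -0.50 and -0.62 in mpk11, at 30 min and 3 h. It left 4 members higher at 30 min and 3 at 3 h in both genotypes, and so did quantile normalization. Over all probes the split of higher to lower calls went from 117 to 1, 184 to 37, 118 to 9 and 198 to 37 as deposited to 87 to 253, 123 to 256, 87 to 266 and 122 to 281 after median centring, for wild type at 30 min and 3 h and then mpk11. Quantile normalization gave 92 to 157, 130 to 184, 97 to 170 and 126 to 194.

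**Figure D3:**
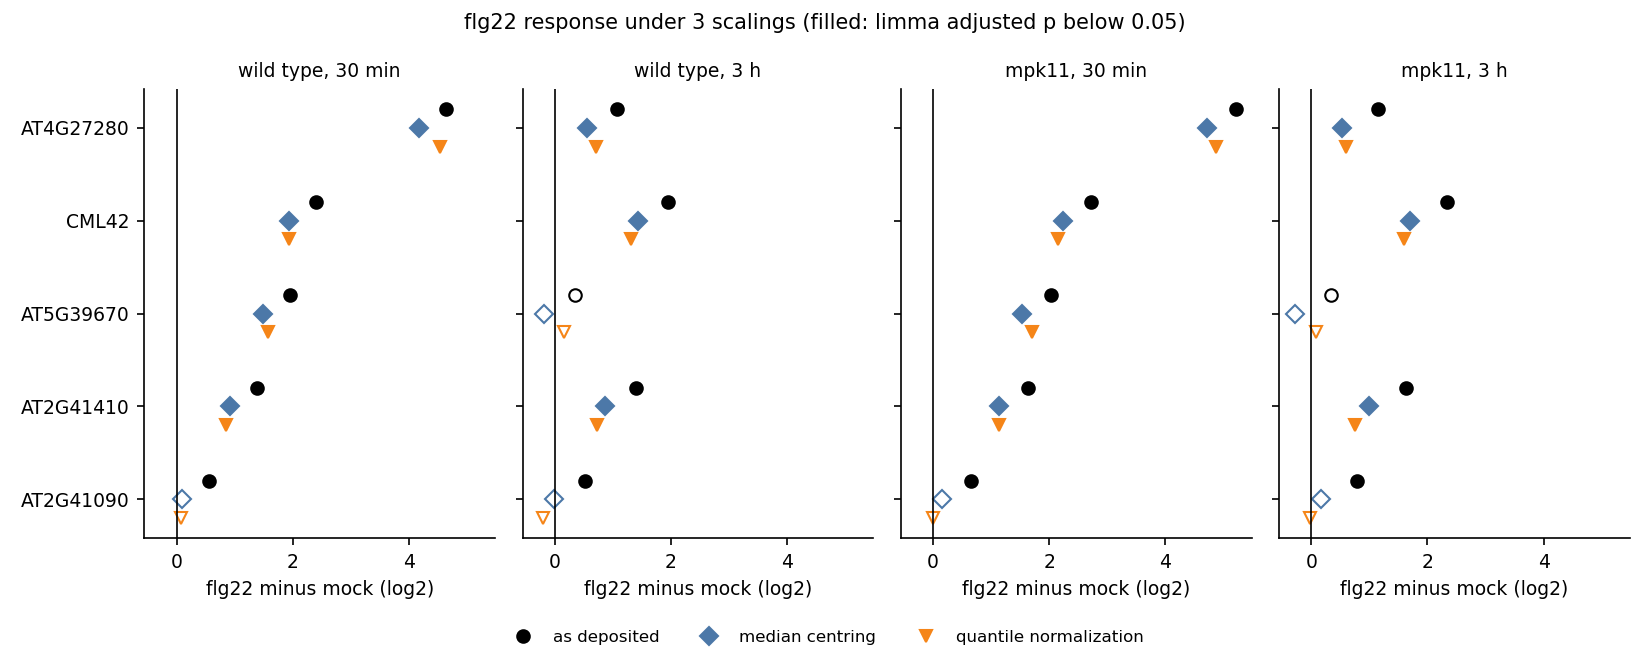
Difference between flg22 and mock (x axis, log2) of the 5 genes (y axis) in each genotype and time, as deposited (black circles), after median centring (blue diamonds) and after quantile normalization (orange triangles). Filled symbols have a limma adjusted p below 0.05. AT2G41090 is filled only as deposited, and AT5G39670 is open at 3 h under all 3 scalings.

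How far the flg22 response itself changed between 30 min and 3 h was tested as an interaction of treatment and time. It became smaller for 2 of 5 members in each genotype, AT4G27280 and AT5G39670, where 11.5% of all probes had a smaller response in wild type and 12.2% in mpk11. Over all probes 93 responses became larger and 66 smaller in wild type, and 80 and 86 after quantile normalization. For AT4G27280 the change was -3.57 (SE 0.29; limma adjusted p = 3.94e-09) in wild type and -4.06 (SE 0.29; limma adjusted p = 5.34e-10) in mpk11, the lowest value of the 576 probes in both. For AT5G39670 it was -1.61 (SE 0.35; limma adjusted p = 0.00109) in wild type and -1.68 (SE 0.35; limma adjusted p = 7.39e-04) in mpk11. The wild-type call of AT5G39670 was lost without set 3, although its value stayed at -1.62 (limma adjusted p = 0.0544). For AT2G41090 the change was -0.05 in wild type (95% interval -0.63 to 0.53) and 0.14 in mpk11 (95% interval -0.44 to 0.72), neither passing.

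**Figure D4:**
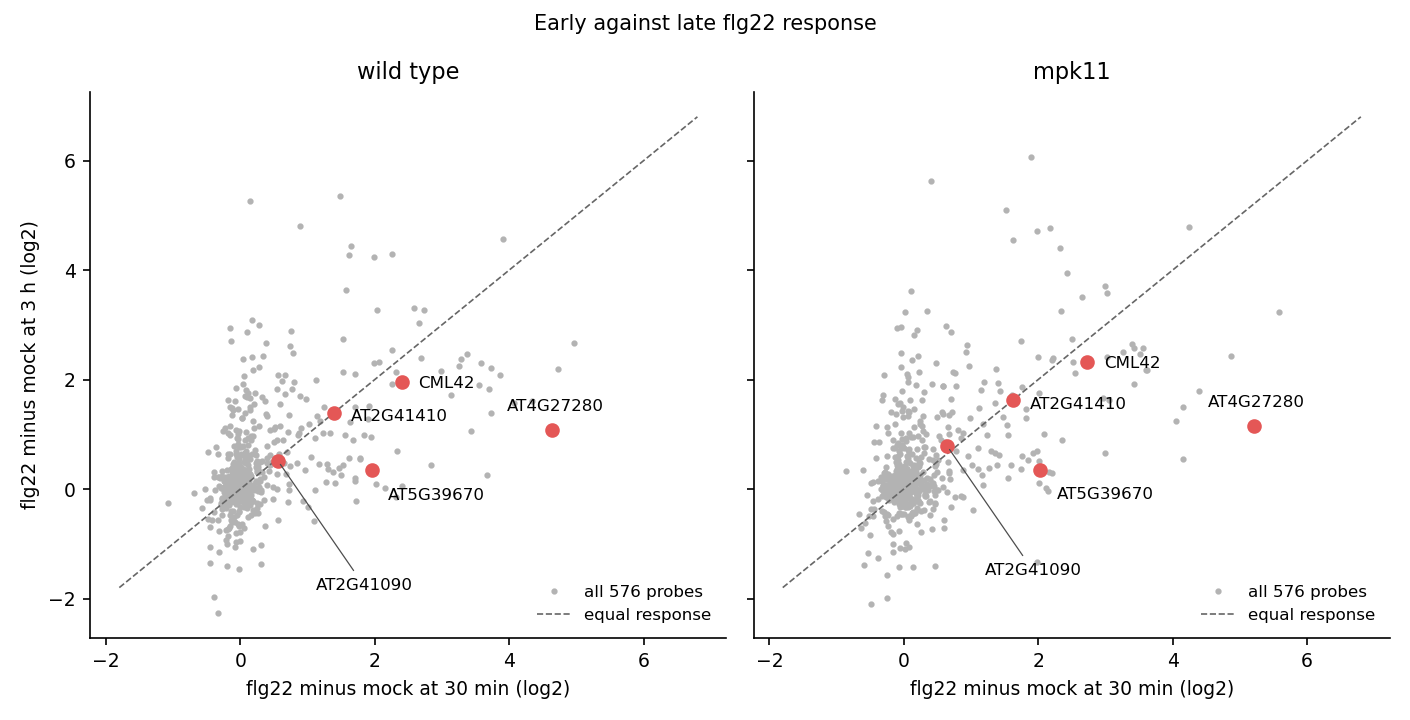
Difference between flg22 and mock at 30 min (x axis, log2) against that at 3 h (y axis, log2) for all 576 probes (grey) and the 5 genes (red), in wild type and mpk11. Points on the dashed line have equal responses at both times. AT4G27280 (4.64 and 1.08 in wild type) and AT5G39670 (1.95 and 0.34) lie below the line, while CML42, AT2G41410 and AT2G41090 lie near it.

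Seen along time within a treatment, 3 of 5 members fell from 30 min to 3 h with flg22 in each genotype, where 22.2% of all probes were lower in wild type and 20.3% in mpk11. AT4G27280 fell by 4.43 (SE 0.21) in wild type and fell by 4.24 in mpk11, AT5G39670 fell by 1.78 and fell by 1.76 (SE 0.25), and AT2G41090 is given above. CML42 differed by -0.32 and -0.20 and AT2G41410 by -0.36 and -0.31, without passing (limma adjusted p from 0.0883 to 0.400). The AT2G41410 calls depended on the setting: in wild type it passed with the set as a block (limma adjusted p = 0.0432) and without flg22 array 2 at 30 min (-0.51) or set 2 (-0.48), and in mpk11 after quantile normalization, at -0.58 (limma adjusted p = 0.00202). In mock seedlings 2 of 5 members fell in wild type, AT4G27280 and AT2G41090, beside 9.03% of all probes, and 1 of 5 fell in mpk11, AT2G41090, beside 9.20%. Mock array medians ranged from 3.53 to 3.76 at 30 min and from 3.34 to 3.63 at 3 h, and median centring moved the mock differences by 0.15 in both genotypes. Over all probes the mock split was 11 higher to 52 lower in wild type and 15 to 53 in mpk11 as deposited, and 17 to 28 and 28 to 29 after median centring. Quantile normalization gave 18 to 39 and 30 to 42.

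**Figure D5:**
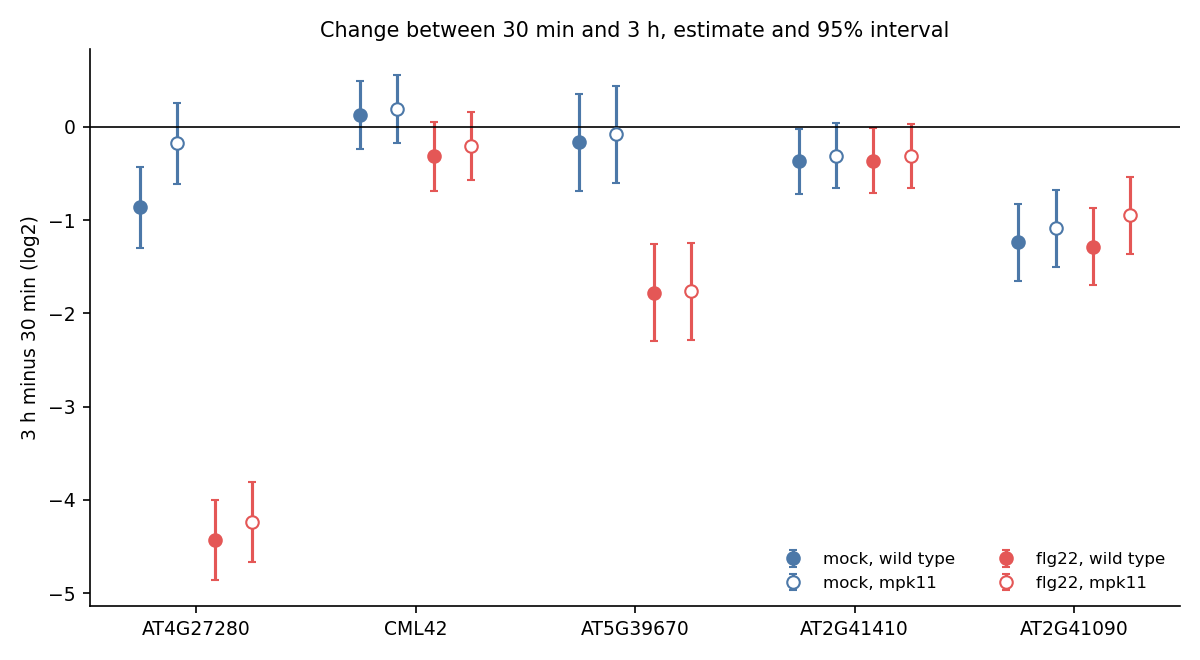
Difference between 3 h and 30 min (y axis, log2) of the 5 genes (x axis), with the limma estimate and its 95% interval, for mock (blue) and flg22 (red) in wild type (filled) and mpk11 (open). AT2G41090 lies between -1.28 and -0.95 in all 4, whereas AT5G39670 lies near 0 in mock and at -1.78 and -1.76 with flg22.

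In wild-type mock seedlings the level of AT4G27280 fell by 0.86 (SE 0.21; limma adjusted p = 0.00990), and it differed by -0.18 in mpk11 (limma adjusted p = 0.691). The wild-type call was lost without mock array 2 at 3 h, with a value of -0.79 (limma adjusted p = 0.0552), and without set 2 or set 3 (-0.75 and -0.83). Whether the mock change differs between the genotypes was not tested.

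The order of the 8 group means sums up these patterns. For AT4G27280 the order was mpk11 with flg22 at 30 min (8.33 ± 0.23, SD, n = 3) and wild type (8.27 ± 0.22), then flg22 at 3 h in mpk11 (4.09 ± 0.20) and wild type (3.84 ± 0.13), then mock at 30 min in wild type (3.62 ± 0.22) and mpk11 (3.12 ± 0.39), and last mock at 3 h in mpk11 (2.94 ± 0.44) and wild type (2.76 ± 0.13). Neighbours in this order overlapped, except between the treated groups of the 2 times and between the mock groups at 30 min, whose closest arrays were 0.01 apart. For AT5G39670 the step lay between flg22 at 30 min (4.54 ± 0.55 in mpk11 and 4.54 ± 0.57 in wild type) and the other 6 groups, whose means ran from 2.42 to 2.78 and overlapped each neighbour.

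For CML42 the 4 treated groups, from 5.98 ± 0.19 in mpk11 at 30 min to 5.58 ± 0.07 in wild type at 3 h, stood above the 4 mock groups, whose means ran from 3.25 to 3.62 and overlapped each neighbour. For AT2G41410 the treated groups at 30 min (7.17 ± 0.32 in wild type and 7.15 ± 0.06 in mpk11) and at 3 h (6.84 ± 0.24 and 6.81 ± 0.08, mpk11 first) were followed by the mock groups, from 5.78 ± 0.13 in wild type at 30 min to 5.22 ± 0.07 in mpk11 at 3 h. For AT2G41090 all groups at 30 min, from 6.44 ± 0.30 with flg22 in wild type to 5.65 ± 0.08 in mock in mpk11, stood above all groups at 3 h, from 5.34 ± 0.21 with flg22 in mpk11 to 4.56 ± 0.19 in mock in mpk11. Its 4 groups at 3 h overlapped their neighbours.

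No member passed between mpk11 and wild type in any of the 4 conditions, where 0% of all probes passed. Across these 20 differences, mpk11 less wild type, the values ran from -0.51 to 0.25 and the 95% intervals reached from -0.94 to 0.69. The median half-width of the members' intervals was 0.41 in each condition, so small differences could have been missed. At an unadjusted p below 0.05 limma gave 1 member difference, AT4G27280 in mock at 30 min, at -0.51 (95% interval -0.94 to -0.07; limma adjusted p = 0.476), with mpk11 lower in all 3 sets. Of all probes, an unadjusted p below 0.05 was found for 50 (30 min) and 6 (3 h) in mock seedlings, and for 24 and 8 in treated seedlings. Averaged over the 4 conditions the members differed by -0.11 to -0.003, with 0 of 5 passing, 0% of all probes passing, and 0 members against 49 probes at an unadjusted p below 0.05 in limma.

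The flg22 response was compared between the genotypes by their interaction. At 30 min the response of AT4G27280 was 0.57 larger in mpk11 than in wild type (95% interval -0.05 to 1.18; limma adjusted p = 0.999), with the difference above 0 in all 3 sets (0.55, 0.14 and 1.00). The groups at 30 min count as paired by set number, and with the set as a block the 95% interval was 0.02 to 1.11 and the unadjusted p 0.0431, while the limma adjusted p was 0.988. CML42 had differences of 0.33 at 30 min (95% interval -0.19 to 0.85) and 0.37 at 3 h (95% interval -0.14 to 0.89). They were again above 0 in all 3 sets at both times, but the flg22 groups at 3 h do not count as paired. AT2G41090 had 0.08 and 0.27, AT2G41410 0.23 and 0.23, and AT5G39670 0.07 and 0.003. In limma 0 of 5 members passed at either time, beside 0% of all probes, and at an unadjusted p below 0.05 there were 0 members at either time and 7 and 8 of all probes without the block. After median centring the 3 h values of AT4G27280 and AT5G39670 were -0.02 and -0.09, and after quantile normalization the values of AT4G27280 and AT5G39670 at 3 h and AT2G41090 at 30 min were also below 0.

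Likeness of pattern was described by Pearson's r over the 8 group means, against the named probes that are no members. All points share the arrays and the difference in array medians between treatments, so the values carry no p. How common high values are among the named probes was not tested. AT4G27280 was most like AT1G27100 (r = 0.991), AT2G18210 (0.990) and AT2G26190 (0.987). AT5G39670 was most like AT2G18210 (0.994), AT4G26400 (0.993) and AT2G26190 (0.991), so 2 of its 3 genes were also on the list of AT4G27280, and the members themselves had r = 0.998 with each other. AT2G18210, for example, went from 2.44 in mock to 3.85 with flg22 at 30 min in wild type and stood at 2.50 and 2.61 at 3 h.

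CML42 was most like AT3G54150 (r = 0.989), AT1G03220 (0.973) and AT2G18680 (0.973), and AT2G41410 most like AT1G05340 (0.990), AT2G36950 (0.986) and WRKY22 (0.984), a transcription factor of the flagellin response. CML42 and AT2G41410 had r = 0.975 with each other. AT2G41090 had lower values, with AT3G57020 (r = 0.943), AT4G20300 (0.937) and AT3G28270 (0.887). AT3G28270 had group means of 5.25 in mock and 5.32 with flg22 at 30 min in wild type, and of 3.22 and 3.48 at 3 h. Among members, AT2G41090 was least like CML42 (r = 0.498). Over the 24 arrays in place of the means, 2 of the 3 genes were again among the top 3 for each member except CML42, which kept only AT3G54150.

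No other calcium-signalling gene was found to set beside the members. Of a list of 61 such genes (calmodulins, other calmodulin-like genes, calcium-dependent kinases, channels, pumps and calmodulin-binding transcription factors) 0 were among the named probes, and 0 further named probes carried calmodulin, calcium, EF-hand, calreticulin, calnexin or annexin in their RefSeq symbols or synonyms. A gene outside the list that is named there only by its identifier would be missed by this search.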

How the data were processed

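The authors deposited 1 log-scale value per probe and array, read here as log2. Per the labels, the arrays were spotted, the leaf RNA carried the dye Alexa555, and a Cy5-labelled oligonucleotide marked poor spots for removal. The sources used here give neither the log base nor the scanner, background correction and normalization. The table held 576 probes on 24 arrays with 0 missing values, and no array repeated another.

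Of the 181 named probes 180 matched RefSeq gene identifiers (assembly TAIR10.1), used for names only. Probe and gene sequences were not used here, so cross-hybridisation was not tested. Tests used limma 3.58.1 in R 4.3.3 with 8 group means, empirical Bayes moderation (prior degrees of freedom 5.39), no probe filter and Benjamini-Hochberg adjustment within each of 17 comparisons. The procedure was tested on simulated data with independent noise, which held no set effect and no shift in array medians between treatments. Members, lists and tests were chosen with earlier results of these data known. All 5 members are named in every comparison, with the 3 named probes most correlated with each.

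Same-numbered arrays were checked for pairing by correlating deviations from group means (median r = 0.336). Every set was over 0.1 in 8 of 12 pairs of groups compared, and these groups count as paired by number. The exceptions were the genotype pair with flg22 at 3 h and the time pairs of wild-type mock and of flg22 in both genotypes. The main model has no block. The alternatives tried were 2 other scalings (median centring and quantile normalization), a filter that dropped the dimmest probes (432 left), a prior both trended and robust, a replicate block by set (fixed or random), a fit of the compared groups alone, and leave-outs of each array or set.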

Additional observations from a re-analysis of the deposited data

Results flagged for a closer look

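The flg22 response of 2 genes differed between 30 min and 3 h by the test of that difference. The response of AT4G27280 changed by -3.57 in wild type and -4.06 in mpk11 (limma adjusted p = 3.94e-09 and 5.34e-10), lower in 3 of 3 sets in each. That of AT5G39670 changed by -1.61 in wild type and -1.68 in mpk11 (limma adjusted p = 0.00109 and 7.39e-04), also lower in 3 of 3 sets in each. These set counts match 30 min to 3 h by set number, and the flg22 groups do not count as paired across these times. Groups of 3 arrays are too small to identify an outlying array. Over the leave-outs of single arrays or sets, the change of AT4G27280 ran from -3.73 to -3.26 in wild type and from -4.25 to -3.82 in mpk11. That of AT5G39670 ran from -1.84 to -1.29 in wild type and from -1.89 to -1.37 in mpk11. Of these calls only that of AT5G39670 in wild type was lost, without set 3.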

How the results depend on the processing

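Of the 85 member differences 31 passed the threshold. Over the settings that kept all arrays, 11 of 217 values of these calls did not pass, all of them flg22 differences of AT2G41090: after median centring and quantile normalization in all 4 comparisons, with the trended and robust prior in wild type at 30 min (limma adjusted p = 0.0534), and with only the groups compared in wild type at both times (limma adjusted p = 0.0679 and 0.103). The sign turned for 4 of these values, -0.0165 after median centring and -0.21 after quantile normalization in wild type at 3 h, and -0.00127 and -0.0219 after quantile normalization in mpk11 at 30 min and 3 h. The cause was not tested beyond the equal shift that centring makes. Leaving out single arrays or sets ended 22 of 303 values, 18 of them for AT2G41090 with flg22, 3 for AT4G27280 in wild-type mock over time and 1 for AT5G39670. The number of members past the threshold then ran from 1 to 2 for the wild-type response at 3 h less that at 30 min and from 1 to 2 for wild-type mock over time, and stayed within 1.5 times elsewhere. With the set as fixed replicate block the 31 calls remained and AT2G41410 fell between the times with flg22 in wild type (-0.36, limma adjusted p = 0.0432; 0.0436 as a random block), a pair of groups the set numbers do not pair. Of the 54 differences that did not pass, 31 changed sign under at least 1 setting without passing, so their direction is not settled.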
